A study of Mus musculus with 15 samples.

Results

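Each captured promoter was ligated not only to fragments of its own chromosome but also to fragments of every other chromosome, and these inter-chromosomal contacts are described here. They were taken from 6 tables of read counts per DpnII fragment, 2 for each of 3 viewpoints, in the mouse build mm9. The viewpoints were the promoters of the α-globin genes (Hba, chromosome 11), of the adult β-globin genes (Hbb, chromosome 7) and of Slc25a37 (chromosome 14), whose product mitoferrin carries iron into mitochondria for haem synthesis. A fragment was a member if it lay off the viewpoint's chromosome and outside the windows of the other viewpoints, which were 32.08 to 32.32 Mb of chromosome 11, 110.93 to 111.05 Mb of chromosome 7 and 69.86 to 69.96 Mb of chromosome 14. Of 1983630 fragment entries in the 6 tables, 1472834 met this rule.

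NG Capture-C cuts cross-linked chromatin with DpnII, ligates ends that lie close together and enriches the junctions of chosen promoters with oligonucleotides. The 15 libraries comprised 14 erythroid cultures and 1 library of the embryonic stem (ES) cell line E14. Erythroid cultures were grown from E12.5 fetal liver of the strain F1 C57Bl6 / CBA and expanded for 5 to 7 days; cells positive for Ter119, a late erythroid surface marker, were then removed and the rest differentiated over 18 hours. The control cultures are labelled without a knockout. R1R2_KO lacked the α-globin elements R1 and R2, R2R3_KO lacked R2 and R3, R1_KO, R2_KO, R3_KO, Rm_KO and R4_KO lacked 1 element each. The ES cells were of the strain 129/Ola. Control, R1R2_KO and R2R3_KO had 3 libraries each, named biological replicates in the labels, and the other groups 1 each. In the column headers R1R2_KO and control share a running sample number, which starts again for R2R3_KO. Whether R2R3_KO was sequenced in a separate run is not stated. A run difference thus cannot be told apart from the deletion in any comparison of R2R3_KO. No control library lies in the tables of the single-element knockouts and ES cells, so ES cells are compared with the 5 single-element knockouts, and cell type, strain and library cannot be told apart in that comparison. Counts alone cannot check the cell types, because the tables hold contacts and no transcripts.

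In the nucleus each chromosome occupies a territory, and gene-rich chromosomes tend to lie towards the interior, where they meet one another more often than gene-poor ones do. Active genes, the globin genes of erythroid cells among them, lie in open chromatin of the interior, and microscopy has placed them in some cells beside other active genes of distant chromosomes. The same ligation step also joins fragments that met by chance after the nuclei were opened, and a read count does not separate these from contacts of the intact nucleus.

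The promoters that served as viewpoints are shown because every contact below was counted from them. Sequences are RefSeq's, 250 bases before to 50 bases after the start of the gene, with capitals for GATAA, a core of the binding site of GATA factors, and CACCC, a core of that of KLF factors, searched on both strands.
Hba-a1, GRCm38.p6 chr11:32283422-32283721, plus strand: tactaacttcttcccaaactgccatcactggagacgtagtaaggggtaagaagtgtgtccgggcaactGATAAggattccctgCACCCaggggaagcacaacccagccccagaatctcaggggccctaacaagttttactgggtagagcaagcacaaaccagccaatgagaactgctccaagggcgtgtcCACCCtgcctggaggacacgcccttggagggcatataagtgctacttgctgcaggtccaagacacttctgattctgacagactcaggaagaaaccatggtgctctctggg
Hbb-bs, GRCm38.p6 chr7:103827879-103828178, minus strand: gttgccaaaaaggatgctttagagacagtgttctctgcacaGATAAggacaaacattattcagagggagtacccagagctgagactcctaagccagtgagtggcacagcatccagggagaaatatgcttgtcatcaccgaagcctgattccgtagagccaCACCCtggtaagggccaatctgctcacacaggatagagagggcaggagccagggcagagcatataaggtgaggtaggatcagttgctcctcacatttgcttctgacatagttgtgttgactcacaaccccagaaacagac
The Hba-a2 window matched that of Hba-a1 at all 297 shared bases, so the 2 α-globin promoters cannot be told apart within it. Each window held 1 GATAA. Hba-a1 held 2 CACCC and Hbb-bs held 1. Of 32851 RefSeq promoters of the same length, 25.4% held a GATAA and 57.5% a CACCC. The DpnII site GATC, found in 48% of them, was absent from the Hba-a1 window and present 1 time in that of Hbb-bs. Which Hbb promoter was captured is given in the labels only as Hbb-b1 and Hbb-b2, whereas RefSeq lists Hbb-bs. No Slc25a37 sequence is shown.

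Depth set how finely these contacts could be read. The 9 replicated libraries had between 20727 and 53755 other-chromosome Hba reads, between 17084 and 42755 Hbb reads and between 6119 and 18165 Slc25a37 reads. The single-element knockouts had 120709 to 311594, 90675 to 234002 and 33904 to 83213, and ES cells 121101, 46640 and 36233. Reads were thinly spread: across the replicated libraries 56.4% of the Hba fragments with any read, 59.2% of those of Hbb and 89.3% of those of Slc25a37 had a single one. Reads carry no molecular identifiers, so intervals below cover counting error only. The 3 viewpoints were read from the same 15 libraries and are not independent of each other.

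Erythroid cells sent a larger share of each promoter's reads to other chromosomes than ES cells did. In the controls the Hba share was 38.9%, 32.9% and 28%, with a mean of 33.3% ± 5.47 (SD, n = 3). It was 30.3%, 31% and 31.7% in R1R2_KO and 35.1%, 35.5% and 35.9% in R2R3_KO, and the single-element knockouts ran from 31.3% in R2_KO to 45.7% in R4_KO. The ES library had 17.2% (Wilson 95% interval 17.1 to 17.3%), lower than each of the 14 erythroid libraries, the lowest of which was 1.63-fold higher.

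The same held at the other promoters. At Hbb the controls had 43.1%, 35% and 30.7% (mean 36.3% ± 6.32, n = 3), R1R2_KO 43.3%, 37.7% and 38.9%, R2R3_KO 42.9%, 42.1% and 44.5%, and the single-element knockouts 37.2% to 49.8%. At Slc25a37 the controls had 38%, 30.9% and 29.7% (mean 32.9% ± 4.46, n = 3), R1R2_KO a mean of 31.6% ± 0.785 (n = 3), R2R3_KO 34.7%, 35.3% and 33.6%, and the single-element knockouts 30.9% to 42.7%. ES cells stood at 16.3% (16.2 to 16.4%) and 18.3% (18.1 to 18.5%), below every erythroid library by at least 1.88-fold and 1.62-fold. The control library with the highest share, replicate 1, was the same at all 3 promoters, and so was the lowest, replicate 3. R2_KO had the lowest share of the 5 single-element knockouts at all 3.

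**Figure D1:**
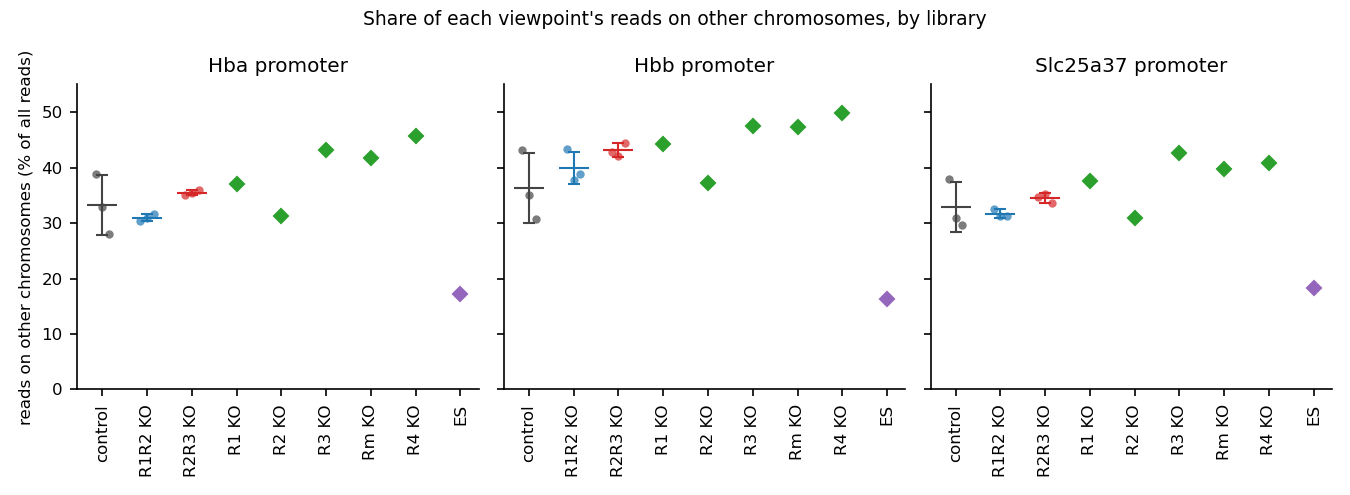
Percent of all reads of a viewpoint that lie on other chromosomes (vertical axis, from 0) for each library of the 9 groups (horizontal axis); bars give the mean and SD of 3 libraries, diamonds a single library. ES cells, at 16.3 to 18.3%, lie below the 14 erythroid libraries at each promoter, and the control libraries spread over 28 to 38.9% at Hba.

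Over all reads, deleting element pairs moved the total share by less than the controls differed among themselves. Of 9 comparisons (3 promoters, 3 pairs of groups), 2 had groups that did not overlap: R2R3_KO was above R1R2_KO by 4.55 percentage points at Hba and by 2.9 at Slc25a37. Both had p = 0.1 in the exact two-sided permutation test, the smallest that 3 against 3 libraries allow, and 0.45 after Benjamini-Hochberg adjustment over the 9. The size and direction of some differences depended on the denominator. Counted over other-chromosome reads plus same-chromosome reads more than 1 Mb away, the Hba share was 71.2%, 68.9% and 63.8% in the controls and 55.4%, 57.3% and 58.3% in R1R2_KO, 11 points lower without overlap. On that scale R2R3_KO lay 4.67 points below the controls at Hba and 5.3 below at Slc25a37, where over all reads it lay 2.28 and 1.69 above.

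Contacts were not spread evenly over the chromosomes. Preference is used here for the share of a library's other-chromosome reads on a chromosome or in a bin, divided by its share of the bases that listed fragments span, so 1 is even. The rule fixed for this work divides instead by the number of fragments listed, but a fragment is listed once it has reads. Over 2181 bins of 1 Mb that number followed the reads (Spearman 0.95 to 0.98 over the 6 tables) more than it followed the span (0.31 to 0.37), and the preference per listed fragment was then nearly flat, from 0.94 to 1.13 over the chromosomes in Hba control cells against 0.53 to 1.70 per base. Values below are therefore per base unless stated.

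Chromosomes Y and M are left out of the order of chromosomes and of the calls against ES cells, and are given apart. At Hba, chromosome 17 had a control preference of 1.70 ± 0.21 and chromosome 19 of 1.63 ± 0.19 (SD, n = 3), followed by chromosomes 9, 13 and 15, each at 1.18. The lowest were chromosome X at 0.53 ± 0.13, chromosome 3 at 0.80 ± 0.07 and chromosome 1 at 0.84 ± 0.04. Chromosomes 17 and 19 stayed above 1 and X below 1 in all 14 erythroid libraries, whose lowest, median and highest values were 1.53, 1.76 and 2.68 for chromosome 17, 1.48, 1.70 and 1.90 for chromosome 19, and 0.35, 0.44 and 0.67 for X.

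Hbb reached a narrower range. Chromosome 11 was highest at 1.28 ± 0.08, then 19 at 1.14 ± 0.12, with 9 at 1.12 ± 0.01 and 15 at 1.12 ± 0.05, and X was lowest at 0.60 ± 0.17, below chromosomes 14 (0.86 ± 0.01) and 18 (0.92 ± 0.08). Slc25a37 preferred chromosomes 19 (1.41 ± 0.12), 11 (1.40 ± 0.09) and 17 (1.17 ± 0.07), and had least on X (0.52 ± 0.12), 18 (0.85 ± 0.06) and 12 (0.88 ± 0.03). Chromosomes 19 and 11 did not differ beyond their spread there. Among the autosomes and X, X was lowest per base at all 3 promoters. Per listed fragment it was not, with control means of 1.12 ± 0.28 at Hba, 1.01 ± 0.28 at Hbb and 1.13 ± 0.26 at Slc25a37. The few reads on Y gave control means of 0.62 ± 0.59, 0.59 ± 0.58 and 0.46 ± 0.45 at Hba, Hbb and Slc25a37, the last 2 below X, with a spread as wide as the values.

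Per base, chromosomes rich in genes tended to be preferred. Over the 17 chromosomes that no viewpoint occupies, control preference and protein-coding genes per Mb (GRCm38.p6 gene table) had a Pearson r of 0.77 and a Spearman rho of 0.53 at Hba. For Hbb r was 0.62 and rho 0.79, and for Slc25a37 0.82 and 0.88; chromosomes share libraries and base composition, so no p is given. In ES cells the same values were 0.57 and 0.55, 0.33 and 0.37, and 0.66 and 0.60. Over these chromosomes Hbb and Slc25a37 ordered the genome most alike in the controls (r = 0.91, rho = 0.95), Hba and Slc25a37 less (0.83, 0.67) and Hba and Hbb least (0.70, 0.66).

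**Figure D2:**
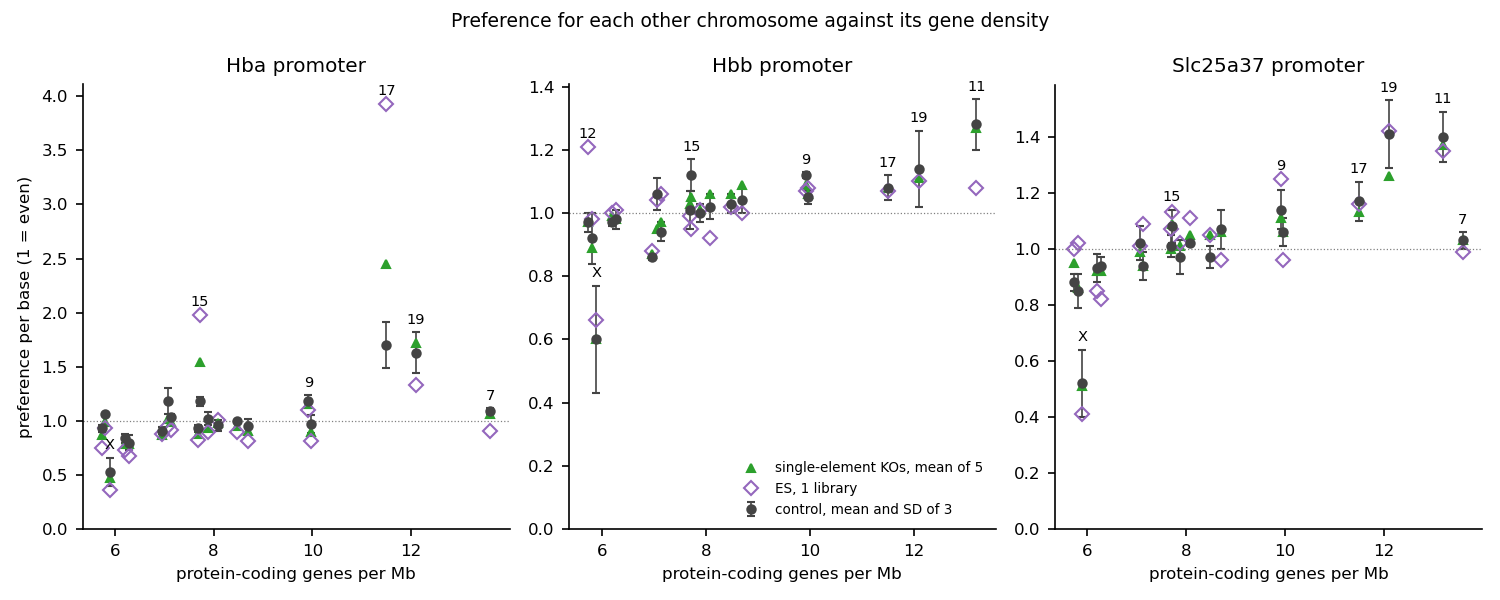
Preference per base (vertical axis, 1 = even) of each chromosome other than the viewpoint's, Y and M against its protein-coding genes per Mb (horizontal axis), with controls as mean and SD of 3, single-element knockouts as the mean of 5 and ES cells as 1 library; some chromosomes are numbered and the vertical scales differ. Chromosome X is lowest in the controls at each promoter, and chromosome 17 reaches 3.93 in ES cells at Hba.

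Set against the single-element knockouts, ES cells had autosomes and X past a fixed difference at Hba, and none at Hbb or Slc25a37. A chromosome was called where ES cells lay at least 25% above or 20% below the mean of the 5 knockouts and outside their range; with 1 ES library no test is possible. At Hba 4 of 19 chromosomes (21.1%) were called. Chromosome 17 was 1.60-fold of the knockout mean (3.93 against 2.45) and chromosome 15 1.28-fold (1.98 against 1.54), while 19 (1.33 against 1.72) and X (0.36 against 0.47) were both at 0.77. All 4 calls rested on 2 chromosomes: with 15 and 17 left out of the total, 19 and X were both at 0.84 and none was called. At Hbb and Slc25a37 none of 19 was called (0%). Of the chromosomes left out, Y would have passed at Hbb (1.01 against 0.52), and M at Hba (82.95 against 52.97) and Slc25a37 (109.21 against 33.62). The nearest of the 19 at Hbb was chromosome 12, 1.21 against 0.97, just short of the threshold.

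Hba reads on chromosomes 17 and 15 were concentrated in small regions. The calls above compare shares of other-chromosome reads. These were 17.2% of all Hba reads in ES cells against a mean of 39.8% in the single-element knockouts. Within 50 kb of the fragment chr17:26438451-26438723 the Hba promoter had 269, 252 and 236 reads in the controls, 222, 184 and 177 in R1R2_KO and 78, 96 and 66 in R2R3_KO. The single-element knockouts had 5361 (R1_KO), 2363 (R2_KO), 4878 (R3_KO), 3885 (Rm_KO) and 4078 (R4_KO), and ES cells 6013. From Hbb the same 100 kb drew 1 to 3 reads in each replicated library, 10 to 29 in the knockouts and 14 in ES cells. Reads were thus piled at this site from the α-globin promoter in every library, ES cells included.

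As a share of other-chromosome reads the chromosome 17 site held 0.63% ± 0.124 in the controls, 0.714% ± 0.177 in R1R2_KO and 0.269% ± 0.0297 in R2R3_KO (SD, n = 3). R2R3_KO lay below both other groups without overlap, a pattern whose exact permutation p cannot go below 0.1. A possible run difference of R2R3_KO cannot be told apart from the deletion here. In the edgeR fit over all 1 Mb bins, the bin chr17:26000001-27000000 differed by a log2 of -0.85 between R2R3_KO and control with an adjusted p of 0.158, and by -0.92 between R2R3_KO and R1R2_KO with an adjusted p of 0.0626, so neither passed 0.05. Scaled to 10000 of all reads of a library, the site had 19.5, 21.1 and 20.9 reads in the controls. R1R2_KO had 16.2, 27.5 and 22.8, and R2R3_KO had 8.56, 10.7 and 9.38. The R2R3_KO libraries were thus below every control and R1R2_KO library on that scale too. The single-element knockouts had 59.8 to 75.1 and ES cells 85.4, above all 5 knockouts. Within 5 Mb of the site, on the same scale, ES cells had 174, inside the knockouts' 170 to 207. No control library accompanies the single-element knockouts, so their higher values than in the controls cannot be assigned to the deletions.

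A weaker site of the same kind lay around chr15:56004888-56005225. Within 50 kb it had 47, 51 and 52 Hba reads in the controls, 50, 43 and 45 in R1R2_KO, 26, 23 and 19 in R2R3_KO, 830 to 1901 in the single-element knockouts and 1909 in ES cells. The central fragment drew 343 to 605 reads in the unreplicated Hba libraries, and at most 2 from Hbb and 1 from Slc25a37 in any library. That fragment alone had 18, 13 and 11 reads in R2R3_KO against 4, 8 and 12 in the controls, so the lower R2R3_KO count came from its surroundings. Over the 100 kb R2R3_KO was the lowest group in reads without overlap, and its bin chr15:56000001-57000000 differed from R1R2_KO by a log2 of -0.97 with an adjusted p of 0.169 in edgeR. Scaled to 10000 of all reads of a library, ES cells had 27.1 within 50 kb against 21.3 to 26.6 in the single-element knockouts. Within 5 Mb ES cells had 54.1, inside the knockouts' 49.8 to 59.9.

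Reads around each site thinned out over megabases rather than ending at the fragment. At the chromosome 17 site R1_KO had 0.929 reads per kb per 10000 reads within 10 kb, a peak of 1.83 at 10 to 20 kb, 0.127 at 50 to 100 kb, 0.0182 at 500 to 1000 kb and 0.00221 at 10000 to 20000 kb. ES cells went from 1.01 over 2.02 to 0.147, 0.0121 and 0.00121, above all 5 knockouts within 200 kb and below all 5 beyond 500 kb. RefSeq's table, which is of another build, places an α-globin pseudogene on each of these chromosomes, Hba-ps3 on 15 and Hba-ps4 on 17; their positions were not compared with the sites, and no source used here says how reads shared by near-identical globin sequences were counted. Their part in these reads was not tested.

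**Figure D3:**
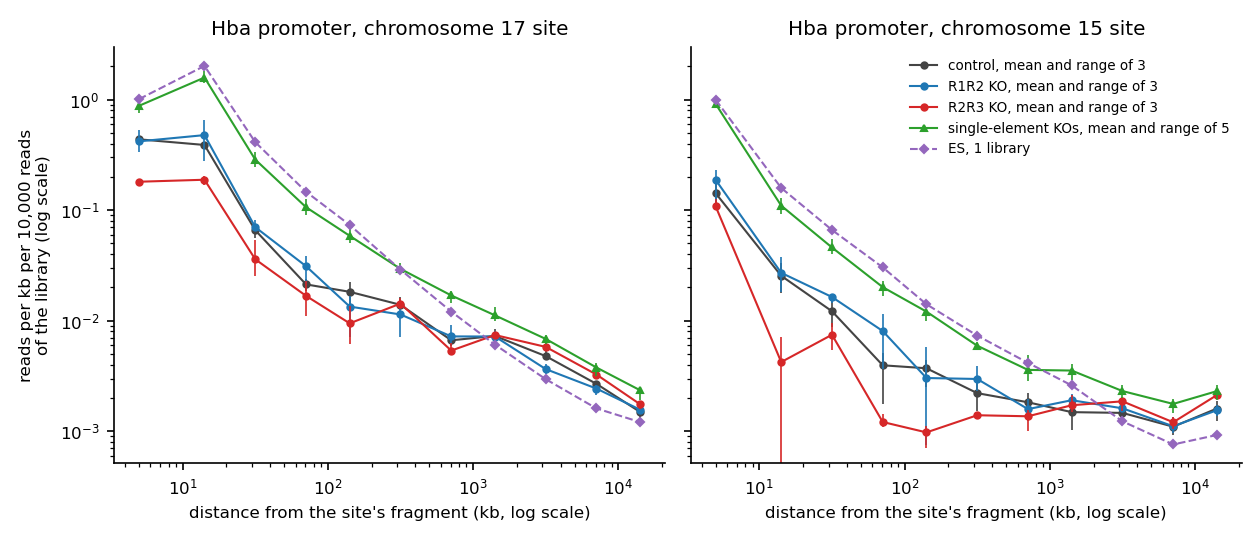
Hba reads per kb per 10000 reads of a library (vertical axis, log scale) against distance from the central fragment of the chromosome 17 and chromosome 15 sites (horizontal axis, kb, log scale); lines give the mean and vertical bars the range of 3 or 5 libraries, ES cells are 1 library, and a bar that reaches the lower edge includes a value of 0. Within 50 kb the R2R3_KO mean lies lowest at both sites, overlapping other groups within 10 kb of the chromosome 15 site, and the ES line starts highest and ends lowest. The single-element knockouts and ES cells have no control library of their own, so their distance from the control line cannot be assigned to deletion or cell type.

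Hbb had a dense block of its own, high in ES cells. Between chr12:20231632 and 20240754, over 9.12 kb, ES cells had 526 Hbb reads on 20 fragments, or 1.13% of their other-chromosome reads, where R1_KO had 62, R2_KO 14, R3_KO 51, Rm_KO 24 and R4_KO 31. Within 50 kb Hba drew 1 to 8 reads there in the unreplicated libraries. Within 1 Mb the ES reads rose only to 547, so almost all of them lay inside the block. No mm9 annotation was used, so no feature is named there.

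At the scale of 1 Mb bins, the 3 promoters shared many of their preferred regions in erythroid cells. Of 2181 bins, those with a preference of 1.5 or more numbered 282 at Hba, 328 at Hbb and 362 at Slc25a37 in the summed controls. At all 3 promoters 143 bins were among them, which is 50.7%, 43.6% and 39.5% of each list. The shared number was 122 in R1R2_KO, 145 in R2R3_KO and 129 in the summed single-element knockouts. ES cells, with 302, 320 and 447 preferred bins, shared 26 (8.61%, 8.12% and 5.82%). Most of the loss was at Hbb: in ES cells Hba and Slc25a37 shared 177 bins, 58.6% of the Hba list, but Hba and Hbb shared 42, 13.9% of it. Of all 2181 bins, the ES lists held 447 at Slc25a37 and 320 at Hbb. The Hba and Hbb overlap was thus near the share of all bins on the Hbb list. By the fragments-listed measure only 2 control bins, 2 of R1R2_KO, 3 of R2R3_KO, none of the single-element knockouts and 5 ES bins were shared by all 3.

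The strongest shared bin of the controls was chr10:80000001-81000000, with preferences of 3.90, 3.85 and 5.02 at Hba. From Hbb it had 3.61, 4.14 and 4.36, and from Slc25a37 5.36, 6.91 and 6.87. Its neighbour chr10:79000001-80000000 averaged 3.65, 3.77 and 5.62 at the 3 promoters. In ES cells the first had 2.54, 1.66 and 2.89 and the second 2.06, 2.02 and 2.83, each below the 5 single-element knockouts at that promoter. Next came chr19:5000001-6000000 (8.43 ± 2.21 at Hba and 5.03 ± 0.31 at Slc25a37, with 3.05 and 3.86 at Hbb in control libraries 1 and 2), chr3:95000001-96000000 (2.81, 4.34 and 5.47) and chr15:78000001-79000000 (3.13, 3.10 and 3.47). All 5 stood above 1.5 in every control library at each promoter. The knockout sums added chr8:87000001-88000000 and chr8:72000001-73000000 to the first 5.

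In ES cells the strongest shared bins were chr10:79000001-80000000, chr16:32000001-33000000, chr5:31000001-32000000, chr9:107000001-108000000 and chr12:3000001-4000000. At chr12:3000001-4000000 ES cells had 2.45 at Hba, 2.42 at Hbb and 2.93 at Slc25a37, above the range of the 5 single-element knockouts at each (1.57 to 2.13, 0.65 to 1.81 and 0.51 to 1.78). At Hba 2 of the R1R2_KO libraries, at 3.34 and 4.72, and 1 of R2R3_KO, at 2.70, were higher than ES cells. The first 4 had control means of 1.56 or more at each promoter.

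Each promoter also had bins of its own. At Hba the highest control bins were chr17:26000001-27000000, which holds the site above (25.91 ± 5.28), chr13:23000001-24000000 (10.42 ± 3.83), chr17:29000001-30000000 (8.83 ± 2.44), chr19:5000001-6000000 and chr9:21000001-22000000 (8.41 ± 2.15). The chromosome 13 bin had 7.26, 9.32 and 14.68 in the controls, 5.46 to 7.20 in the single-element knockouts and 2.84 in ES cells, below all 14 erythroid libraries. Hbb had no bin of that height: its first were chr9:107000001-108000000 (4.36 ± 2.02), chr3:95000001-96000000 (4.34 ± 1.34), chr8:108000001-109000000 (4.19 ± 0.72), chr10:80000001-81000000 (4.04 ± 0.39) and chr3:88000001-89000000 (3.81 ± 0.99), which had 2.70, 0.93, 1.04, 1.66 and 1.19 in ES cells. Slc25a37 was highest at the pair on chromosome 10, chr7:134000001-135000000 (5.76 ± 1.16), chr3:95000001-96000000 and chr4:132000001-133000000 (5.15 ± 1.16).

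Ranking all 2181 bins separated ES cells from erythroid cells at Hbb. The Spearman correlation of ES preferences with the summed single-element knockouts was 0.80 at Hba and 0.70 at Slc25a37 but 0.28 at Hbb. Each knockout against the sum of the other 4 gave 0.80 to 0.82, 0.72 to 0.78 (Hbb) and 0.74 to 0.78. The shallowest replicated Hbb library, with 17084 reads against 46640 in ES cells, reached 0.60. Counting fragments with reads instead of reads gave 0.45 for ES cells at Hbb and 0.76 to 0.83 for the knockouts, and leaving out chromosome 12 left 0.28. These correlations are across bins that share libraries and carry no p.

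**Figure D4:**
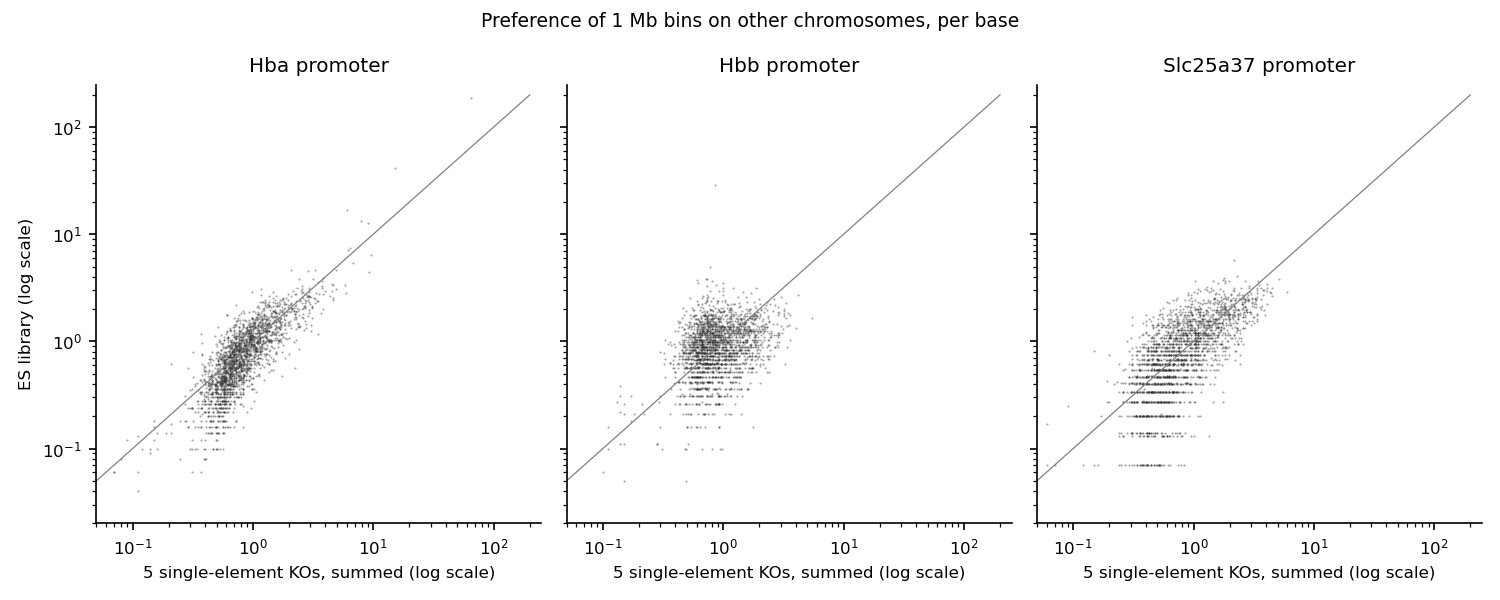
Preference per base of 2181 bins of 1 Mb in ES cells (vertical axis, log scale) against the summed 5 single-element knockouts (horizontal axis, log scale), 1 panel a promoter, with the line of equality; bins without reads (at most 22 in ES cells) are not drawn. Points follow the line at Hba and Slc25a37 (Spearman 0.80 and 0.70) and form a rounded cloud at Hbb (0.28), with the chromosome 12 bin at 29.07 in ES cells above it.

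Between promoters the picture was the same. Within a single-element knockout library the bin preferences of Hba and Hbb correlated at 0.51 to 0.57, those of Hba and Slc25a37 at 0.59 to 0.62 and those of Hbb and Slc25a37 at 0.60 to 0.69. In ES cells Hba and Slc25a37 remained at 0.61, whereas Hbb fell to 0.10 with Hba and 0.17 with Slc25a37. Of the bins preferred in controls, ES cells also preferred 62.4% at Hba, 64.1% at Slc25a37 and 25.3% at Hbb. Of all 2181 bins they preferred 302, 447 and 320. The bins preferred by the knockouts at Hbb, 14.3% of all, held 17.5% of ES Hbb reads. They held 25.6 to 31.6% in the 9 replicated libraries, which had no part in choosing them.

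Single bins were compared between ES cells and knockouts where they averaged 20 or more reads over the 6 libraries. ES cells were at least 2-fold higher and outside the knockout range in 47 of 2420 bins (1.94%) at Hba, 254 of 2393 (10.6%) at Hbb and 83 of 1235 (6.72%) at Slc25a37, and 2-fold lower in 255 (10.5%), 326 (13.6%) and 130 (10.5%). A bin had a median of 36, 18 and 20 ES reads, so part of these calls lies within counting error, and in bins of 10 Mb 3, 6 and 2 were called in all. At Hbb the bins lower in ES cells had a median control preference of 1.31 and the higher ones of 0.66, against 0.86 for all bins tested; at Hba the order was not the same (0.65, 0.76 and 0.80). The largest Hbb rise was the chromosome 12 bin, 29.07 against 0.55 to 1.48 in the knockouts. Others were chr13:79000001-80000000 (4.93 against 0.54 to 1.37), chrX:111000001-112000000 (3.76 against 0.30 to 1.18) and chr13:88000001-89000000 (3.48 against 0.54 to 0.69). Among the bins with the strongest fall at Hbb was chr16:92000001-93000000, with 3 ES reads where the knockouts had 89 to 170.

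The promoters differed in where along other chromosomes their reads lay. Leaving out chromosomes 15 and 17, the ratio of reads per base in the first 10 Mb, the centromeric end of mouse chromosomes, to the middle was 1.34 ± 0.12 at Hba in the controls, 0.86 ± 0.05 at Hbb and 0.92 ± 0.04 at Slc25a37. The last 10 Mb went the other way, at 0.85 ± 0.07, 1.34 ± 0.10 and 1.21 ± 0.06. In the 14 erythroid libraries the first-end ratio of Hba, 1.23 to 1.62, did not overlap those of Hbb, 0.77 to 0.96, and Slc25a37, 0.78 to 0.96. ES cells had 1.39, 0.96 and 0.96 at the first end and 0.93, 1.17 and 1.43 at the last. Between control and the knockout pairs, and between the pairs, 18 such comparisons were made. The smallest exact permutation p was 0.1, the lowest that 3 against 3 libraries allow, or 0.225 after adjustment. Several comparisons reached it with groups that did not overlap, and the rest overlapped. Without overlap were R1R2_KO minus control at the first end of Hba (0.23) and R2R3_KO minus control at its last end (-0.16).

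Few chromosomes or bins were called between control and the element pairs, or between the pairs. In simulated counts edgeR recovered 4%, 0% and 24% of bins changed by a log2 of 1 at Hba, Hbb and Slc25a37. A lack of calls is therefore not a lack of change. In edgeR's quasi-likelihood test with Benjamini-Hochberg adjustment, 2 of 21 chromosomes (9.52%) passed 0.05 for R2R3_KO against control at Hba: chromosome 15 rose by a log2 of 0.20 (SE 0.05, adjusted p = 0.0188) and chromosome 1 fell by 0.15 (SE 0.04, adjusted p = 0.0388). Chromosome 15 took 486, 492 and 461 of 10000 other-chromosome reads in the controls and 558, 559 and 535 in R2R3_KO, and chromosome 1 took 701, 651 and 641 against 596, 599 and 607. Neither pair of groups overlapped. Leaving out R2R3_KO library 1 or 2 raised the adjusted p for chromosome 15 to 0.117 and 0.11, and leaving out any single R2R3_KO library raised that for chromosome 1 to 0.108 or more. 

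At Slc25a37, 1 of 21 chromosomes (4.76%) passed for R1R2_KO against control. Chromosome X fell by a log2 of 0.36 (SE 0.11, adjusted p = 0.0345), from 275, 429 and 328 of 10000 reads to 253, 254 and 276. The highest value belonged to control 2, which also had 4.44% of its Hba reads and 5.13% of its Hbb reads on X, the most of any library, and 4, 2 and 0 reads on Y at the 3 promoters. Control 1 had 79, 61 and 19 there. Without control 2 the difference was -0.17 with an adjusted p of 0.378, and the sex of the embryos is not given in the labels.

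The other 7 comparisons of chromosomes had no call in edgeR, with 1 to 3 of 21 chromosomes at an unadjusted p under 0.05. DESeq2 called 2 for R2R3_KO against control at Hbb and 1 each for R2R3_KO against control at Slc25a37 and against R1R2_KO at Hba.

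Among 1 Mb bins, 4 of 2351 (0.17%) were higher in R2R3_KO than in R1R2_KO at Hba. The bin chr17:29000001-30000000, also among the 5 highest of the controls, had 21.4, 26.5 and 13 of 10000 reads in R1R2_KO and 45, 51.8 and 49.9 in R2R3_KO, a log2 of 1.27 (SE 0.26, adjusted p = 0.00615), with controls between at 27.5, 34.1 and 47.2. The shared bin chr15:78000001-79000000 rose from 8.9, 7.72 and 13.8 to 27.8, 22.3 and 28.1, above the controls' 10.4, 13 and 14.9 (log2 1.36, SE 0.28, adjusted p = 0.00615). Smaller counts lay behind chr5:121000001-122000000 (log2 1.58, adjusted p = 0.0196) and chr7:148000001-149000000 (1.75, 0.0299), the latter with 13, 4 and 4 reads against 32, 22 and 18. Without R1R2_KO library 1 none of the 4 passed, with adjusted p of 0.0853 to 0.123. Without R1R2_KO library 2 chr17:29000001-30000000 alone passed (0.0131), while without R1R2_KO library 3 that bin did not (0.176). Without R2R3_KO library 1 the chromosome 17 and chromosome 5 bins passed (both 0.027), and without control 3 the number of calls was 7.

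At Hbb 1 of 2312 bins (0.0433%) passed for R1R2_KO against control, chr9:3000001-4000000 (log2 1.35, SE 0.30, adjusted p = 0.0296). It rested on 1 fragment, chr9:3613927-3614425, which held 282 of its reads in the 9 libraries, 107 of them in R1R2_KO library 1; without the 100 fragments with most reads the log2 was -0.81. The other 7 comparisons called no bin in edgeR or DESeq2. At an unadjusted p under 0.05 they had 129 and 175 of 2351 bins (R1R2_KO and R2R3_KO against control) at Hba. At Hbb they had 142 and 154 of 2312 (R2R3_KO against control and against R1R2_KO), and at Slc25a37 28, 35 and 41 of 636. An unadjusted threshold passes some bins without any change, so these counts are not calls. Summed into 10 Mb bins, R2R3_KO differed from control in 12 of 263 (4.56%) at Hba, 6 up and 6 down. The strongest fall was chr10:120000001-130000000 (log2 -0.81, SE 0.18, adjusted p = 0.00242), and the strongest rise was chr15:30000001-40000000 (0.52, SE 0.13, adjusted p = 0.0154).

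Per base, regions around erythroid genes were contacted more than most. Per listed fragment this was not so in the controls at Hbb and Slc25a37, and it varied between the erythroid groups. Windows of 3 Mb were centred on 24 genes of the red cell programme, of which 23 could be used at each globin promoter. In the controls 19 of 23 had a preference above 1 at Hba, with a median of 1.43, where 33.9% of all windows did. At Hbb 21 of 23 did (median 1.65; 38.9% of all windows), and at Slc25a37 22 of 24 (median 1.86; 36.6%). Per listed fragment 14, 11 and 10 control windows were above 1, against 48.1%, 48.6% and 51.8% of all windows. The single-element knockouts had 17, 16 and 20, against 30.6%, 41.1% and 41%. R1R2_KO had 9, 12 and 12, against 42.7%, 46.2% and 49.4%. R2R3_KO had 14, 14 and 16, against 37.4%, 47.5% and 39.5%. Of 12 pluripotency genes 5 of 12, 8 of 11 and 8 of 12 were above 1 per base in the controls, with medians of 0.97, 1.28 and 1.37. A window holds many genes besides the one it is named for.

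Epor, the erythropoietin receptor, had the highest erythroid window at Hba, with 4.07, 4.76 and 5.50 in the controls. Gfi1b, a transcriptional repressor needed for red cell formation, had 2.51 ± 0.46, Tfrc, the transferrin receptor, 2.33 ± 0.39, and Nfe2, a globin locus transcription factor, 2.08 ± 0.22. Low windows were those of Alas2, the X-linked first enzyme of haem synthesis (0.45 ± 0.17), Bcl2l1 (0.96 ± 0.10) and Lmo2 (0.96 ± 0.22).

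Nfe2 led at both other promoters, at 2.86 ± 1.40 for Hbb and 3.63 ± 1.30 for Slc25a37, with a wide spread. At Hbb it was followed by Slc4a1, the band 3 anion exchanger (2.57 ± 0.62), Zfpm1, the GATA1 cofactor FOG1 (2.33 ± 0.55), Tfr2 (2.28 ± 0.36) and Epb42 (2.18 ± 0.25). At Slc25a37 came Zfpm1 (3.12 ± 0.41), Epb42 (2.88 ± 0.42) and E2f2 (2.82 ± 0.34), then Tfrc (2.80 ± 1.08), with Slc4a1 and the α-globin chaperone gene Ahsp at 2.75 each. Alas2 was again among the 3 lowest at both. Of the pluripotency list, Lin28a at Slc25a37 (3.91 ± 0.38) stood above every erythroid window.

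ES cells had lower values in many erythroid windows. They fell below all 5 single-element knockouts in 14 of 23 at Hba, 15 of 23 at Hbb and 11 of 24 at Slc25a37, where 36.5%, 30.2% and 23.5% of all windows did. The number above 1 in ES cells was 13, 14 and 18, where 31.7%, 45.4% and 41.9% of all windows were, and the medians were 1.15, 1.09 and 1.78. At Hbb Slc4a1 had 1.16 in ES cells against 2.52 to 3.11 in the knockouts, Epb42 0.85 against 1.77 to 2.21 and Gata1 0.35 against 0.81 to 0.98. Pluripotency windows were below all 5 knockouts in 2 of 12, 5 of 11 and 3 of 12, and above all 5 in 3, 3 and 2. Of all windows 15.4%, 33.6% and 23.1% were above all 5.

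**Figure D5:**
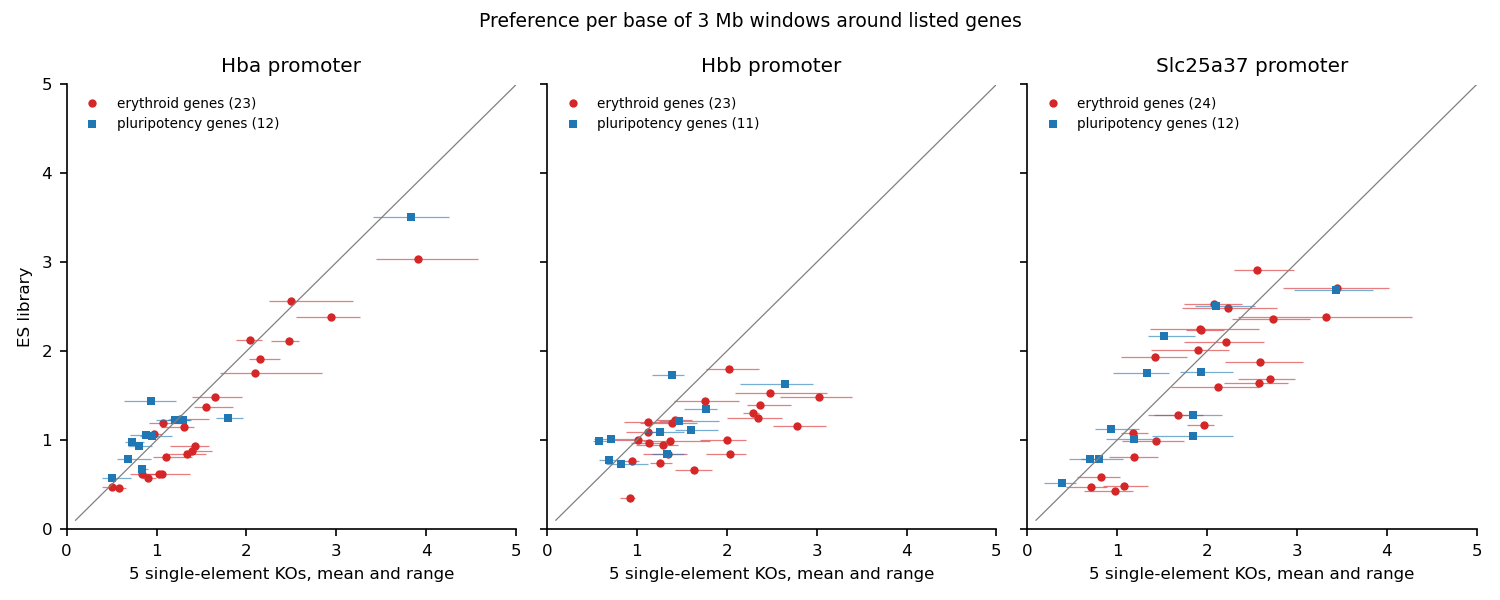
Preference per base of 3 Mb windows around erythroid and pluripotency genes in ES cells (vertical axis) against the mean (point) and range (bar) of 5 single-element knockouts (horizontal axis), with the line of equality. At Hbb 15 of 23 erythroid windows lie below the range of the knockouts.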

How the data were processed

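The authors deposited raw read counts per DpnII fragment in mm9, 1 table of control and the knockout pairs and 1 of the single-element knockouts and ES cells per viewpoint; Trim Galore and Bowtie are the tools named, per the submitters' processing notes. Left out were 7 columns in each control table, 21 in all, whose names fit none of the 15 samples. Fragments were placed by midpoint and summed by chromosome and by 1 Mb bin. The members and lists were chosen with earlier results of these data known. Tests were edgeR 4.0.16 (quasi-likelihood, 9 libraries, group as the only term, library size all other-chromosome reads, bins with 45 or more reads) with Benjamini-Hochberg adjustment within a contrast, and exact permutation tests of shares; single libraries had no test. P-values measure the spread between libraries, which may be technical. In counts simulated for R1R2_KO against control, edgeR recovered 4% of changed bins at a log2 of 1 at Hba, 0% at Hbb and 24% at Slc25a37. It recovered 66.7 to 100% of chromosomes, with only 3 changed at each size. Alternatives were DESeq2 1.42.0, TMM, other denominators, bins and filters, fragments with reads, and leaving out libraries.

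Named were the 3 highest and lowest control chromosomes, the 5 highest control bins, bins shared by the 3 viewpoints, those past a threshold, and the 5 highest and 3 lowest windows of a list, some of which are not reported here; the bin minimum span of 500 kb, the end ratios and the site regions were chosen after seeing the counts. Mm9 gene positions for the windows were entered by hand and are approximate; 23 of 24 erythroid and 12 of 12 pluripotency symbols were found in the GRCm38.p6 table, on the same chromosomes. The label of the ES sample repeats the fetal liver culture text, so how ES cells were grown is not known here, and it names Slc25A38 in place of Slc25A37. Replicates differed with a chi-square of 1.12 to 2.18 per degree of freedom over bins, and none was merged. R 4.3.3 and Python 3.11.15 were used.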

Additional observations from a re-analysis of the deposited data

How the results depend on the processing

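Depth set the limits: with a median of 41, 37 and 11 control reads per bin over 3 libraries, the simulated 2-fold changes were mostly missed, and ES cells had 1 library. By the fragments-listed measure 2 control, 0 single-element knockout and 5 ES bins were shared by all 3 viewpoints. Per base these were 143, 129 and 26, and 42, 38 and 6 with a 2-fold threshold. By the fragments-listed measure control had 1 and ES 0 with a 2-fold threshold. Without the 100 top fragments control had 1 and ES 8, and with fragments with reads ES had 2. Erythroid windows above 1, listed measure first and per base second, went from 6 to 13 (Hba, ES), 2 to 14 (Hbb, ES), 11 to 21 (Hbb, control), 8 to 18 (Slc25a37, ES) and 10 to 22 (Slc25a37, control). On the 1 Mb bin alone they were 5 (Hbb, ES), 17 (Hbb, control) and 4 (Slc25a37, ES), and 4 without the top fragments (Hbb, ES). The denominator follows the reads, as the report states; for the other changes the cause was not tested.

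Over other plus far same-chromosome reads, the share differences changed to -4.67 (Hba, R2R3_KO minus control), -5.3 (Slc25a37, same pair), -1.77 (Slc25a37, R2R3_KO minus R1R2_KO) and -25.2 (Slc25a37, ES minus knockouts, -20 over all reads). R1R2_KO minus control went from -2.27 to -11 at Hba and from 3.69 to 0.108 at Hbb, and R2R3_KO minus control from 6.88 to 1.13 at Hbb. Leaving out 1 library gave -4.92 to 0.544 (Hba, R1R2_KO minus control), -0.365 to 5.1 (Hba, R2R3_KO minus control) and -2.8 to 1.34 (Slc25a37, R1R2_KO minus control). ES chromosome calls at Hba fell from 4 to 0 with fragments with reads, and to 0 without chromosomes 15 and 17. ES bin calls of 302, 580 and 213 became 3, 6 and 2 in 10 Mb bins, of which there are fewer.

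Chromosome calls were 2 for R2R3_KO against control at Hba, 1 with the replicate block and 0 to 5 leaving out a library. For R1R2_KO against control at Slc25a37 the 1 call became 0 in DESeq2, with fragments with reads, with the replicate block and without Y and M, and 0 to 2 leaving out a library. Comparisons without a call gained 2 in DESeq2, 1 with TMM, 1 without Y and M and 0 to 1 leaving out a library (Hbb, R2R3_KO against control), 1 in DESeq2 and 0 to 2 leaving out a library (Slc25a37, R2R3_KO against control), 1 in DESeq2 (Hba, R2R3_KO against R1R2_KO), 1 with TMM (Slc25a37, same pair), and 0 to 1 leaving out a library (R1R2_KO against control at Hba and Hbb, R2R3_KO against R1R2_KO at Hbb).

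Bin calls for R2R3_KO against R1R2_KO at Hba were 4, 8 in DESeq2 (which gave no adjusted p for the chromosome 5 and 7 bins), 0 in 10 Mb bins and 0 to 7 leaving out a library. For R2R3_KO against control at Hba 0 became 12 in 10 Mb bins and 0 to 1 leaving out a library. The 1 Hbb call became 0 in DESeq2, with TMM, with the replicate block and without the 100 top fragments, where its log2 was -0.81, and 0 to 1 leaving out a library. At Slc25a37 R2R3_KO against control had 1 with no filter and 0 to 1 leaving out a library. R1R2_KO against control at Hba and Slc25a37 and R2R3_KO against R1R2_KO at Hbb had 0 to 1. Same-numbered libraries did not deviate together (r of -0.03 to 0.05, 0 of 9 pairs above 0.1 at each viewpoint), and other pairs had r of -0.07 to 0.07. With so few reads per bin this cannot show whether the numbers pair samples. Of the summary values under an alternative, 327 kept their direction and size class, 77 moved and 6 reversed.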

Other observations

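Mitochondrial fragments entered the edgeR tests of chromosomes but not the order of chromosomes. Their reads numbered 1 to 145 in a library at a viewpoint, or 0.081 to 1.19 per 1000 other-chromosome reads. Per base this was a preference of 22.03 to 180.71 in the 14 erythroid libraries at Hba, with a median of 66.94, and 82.95 in ES cells. At Slc25a37 ES cells had 109.21, above the highest erythroid value of 92.16.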
